A study of Mus musculus with 6 samples.

Results

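The genes described here are 10 S100 calcium-binding protein genes of mouse cheek skin, S100a3, S100a4, S100a6, S100a7a, S100a8, S100a9, S100a10, S100a11, S100a14 and S100a16. They were taken by symbol from a table of 19309 genes, and all 10 were found in it and passed the filter on low counts. RNA was sequenced from both cheeks of 3 C57BL/6 mice aged 6 to 8 weeks, which gave 6 libraries in 2 groups of 3. The shaved right cheek was wiped with a mixture of acetone and ether for 30 s and then with distilled water, also for 30 s (AEW, used to model dry skin), and the left cheek with distilled water alone for 60 s (vehicle). Both were wiped each morning and afternoon until tissue was taken on day 12. The labels name no transgene or deletion, and the side of the face cannot be told apart from the treatment. The comparison asked how AEW skin differed from vehicle skin of the same animals.

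S100 proteins are small proteins with a pair of EF-hand calcium-binding sites, which pair up with one another and bind target proteins when calcium rises. S100A8 and S100A9 form calprotectin, a metal-binding antimicrobial complex that neutrophils and monocytes hold in large amounts and that keratinocytes make when the epidermis is wounded or inflamed. Other members sit in the cytoplasm and at membranes of epidermal cells, fibroblasts and leukocytes, where several bind annexins, and S100A3 belongs to the cuticle of the hair shaft.

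Library totals lay between 18449145 and 19506462 estimated counts. Among marker genes of other cell types in the tissue, skeletal muscle stood out. Its 12 markers summed to between 29361 and 43939 CPM (counts scaled to a common library size) in vehicle skin and between 12660 and 18198 CPM in AEW skin. Keratinocytes were well represented in every library, with 7 basal markers summing to between 6051 and 9570 CPM in vehicle skin and to between 10710 and 12525 CPM in AEW skin. In bulk tissue, a change in the number of cells of a type and a change in RNA per cell cannot be told apart. AEW replicate 1 stood apart from the other AEW libraries, with 6 melanocyte markers summing to 258 CPM against 61.7 and 67.2 CPM, and with the lowest macrophage sum of the 3. Results for S100a8, S100a9 and S100a3 are given with and without it, and some list counts without it are given at the end.

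The members span genes that lie beside one another on chromosome 3. In the RefSeq order of protein-coding genes, S100a14 is followed by S100a16, S100a3, S100a2, S100a4, S100a5, S100a6, S100a7a, S100a8 and S100a9, with no other protein-coding gene between them. S100a11 and S100a10 are neighbours farther along, after 54 further protein-coding genes counted from S100a7l2. S100a8 and S100a9, the neighbours that changed together in the data, are shown by the 250 bases before their RefSeq start (build GRCm38.p6, which differs from the GRCm39 build of the deposited values). S100a8 lies on the plus strand at chr3:90668821-90669070 and S100a9 on the minus strand at chr3:90695722-90695971, and capitals mark matches to 5 searched motifs.
S100a8: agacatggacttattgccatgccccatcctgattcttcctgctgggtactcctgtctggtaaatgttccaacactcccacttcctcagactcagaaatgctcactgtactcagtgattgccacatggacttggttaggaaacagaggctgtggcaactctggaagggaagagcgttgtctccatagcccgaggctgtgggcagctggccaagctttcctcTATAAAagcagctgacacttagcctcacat
S100a9: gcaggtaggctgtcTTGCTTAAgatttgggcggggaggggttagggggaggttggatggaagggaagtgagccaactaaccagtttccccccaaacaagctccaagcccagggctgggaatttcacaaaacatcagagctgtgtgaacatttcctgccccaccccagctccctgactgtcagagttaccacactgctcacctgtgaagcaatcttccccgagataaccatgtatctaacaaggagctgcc
The motifs, searched on both strands, were TTGCNNAA (C/EBP), TTCNNNGAA (STAT), TGANTCA (AP-1), the core promoter box TATAAA, and for NF-kB a run of 3 guanines, any 5 bases and a pair of cytosines, chosen after the values were seen. The S100a8 window held TATAAA from 30 to 25 bases before the start, a motif found in 12.4% of 32851 windows of the same length. The S100a9 window held a match to TTGCNNAA from 236 to 229 bases before the start, found in 9.56% of the windows. In the S100a9 entry TATAAA begins at base 1 of the annotated transcript and so falls just outside the printed window. Neither window matched the AP-1, STAT or NF-kB letters, which were found in 6.75%, 7.02% and 45.8% of windows, and no statement about those factors follows from this. RefSeq promoter entries were matched for 8 of the 10 members.

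The levels of the members differed widely. On the deposited scale of TPM, transcript abundance corrected for gene length, S100a11 was the most abundant member in vehicle skin at 2612 ± 249 TPM (SD, n = 3). S100a10, S100a4 and S100a6 followed at 1196 ± 171, 1195 ± 222 and 1106 ± 133 TPM, and the libraries of these 3 genes overlapped. S100a14 at 552 ± 81.5 and S100a16 at 484 ± 52.3 TPM also overlapped with each other and lay below those of S100a6. S100a3 stood at 61.5 ± 17.8 TPM. The lowest 3 were S100a8 at 5.72 ± 2.04, S100a9 at 4.52 ± 1.94 and S100a7a at 2.16 ± 0.449 TPM, which overlapped from each to the next.

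In AEW skin S100a11 was again the most abundant, at 3113 ± 37.6 TPM (SD, n = 3), and S100a7a the lowest, at 4.14 ± 1.70 TPM. S100a4, S100a6 and S100a10 followed S100a11 at 1193, 1188 and 1113 TPM and overlapped, and the libraries of S100a10 also overlapped with those of S100a14 at 789 ± 78.3 TPM. S100a9 and S100a8 reached 55.4 ± 44.1 and 38.8 ± 28.7 TPM, and the libraries of S100a9 overlapped with those of S100a3. The members together made up 0.765%, 0.772% and 0.629% of all TPM in vehicle replicates 1 to 3 and 0.870%, 0.853% and 0.760% in AEW replicates 1 to 3, so the ranges of the groups overlapped.

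**Figure D1:**
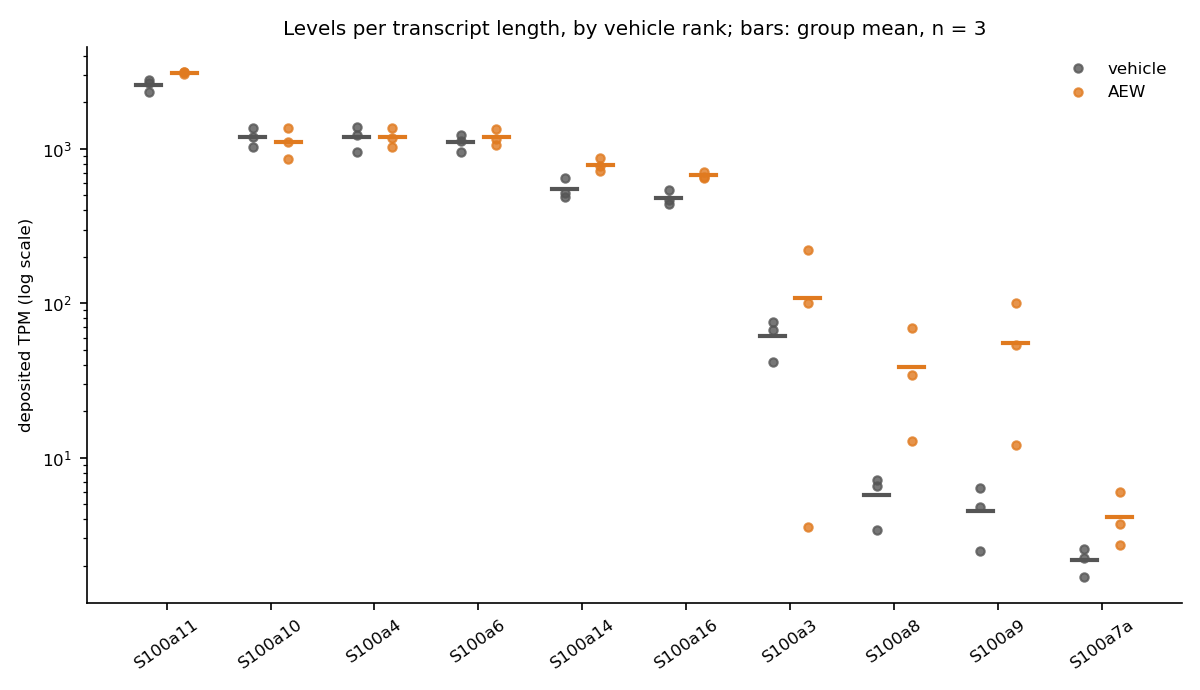
Deposited TPM on a log axis for each of the 10 S100 genes, ordered by vehicle mean, with each point a library and each bar the mean of 3 libraries in vehicle (grey) and AEW skin (orange). S100a11 is the highest in both groups, and S100a8 and S100a9 move from means of 5.72 and 4.52 TPM in vehicle skin to means of 38.8 and 55.4 TPM in AEW skin.

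Of the 10 members, S100a8 and S100a9 rose in AEW skin and 0 fell, at an adjusted p under 0.05 in edgeR's quasi-likelihood test over 15109 genes. Of all tested genes 4.85% were called higher and 6.8% lower by the same rule. The median log2 fold change was 0.45 over the members and 0.01 over all tested genes. For 6 members, S100a7a, S100a8, S100a9, S100a11, S100a14 and S100a16, every AEW library lay above every vehicle library, and for 0 members every AEW library lay below. Over all tested genes 17.4% lay wholly above and 19.5% wholly below in this way. With the mouse as a block, 0 of the members were called higher, against 1.99% of all tested genes.

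**Figure D2:**
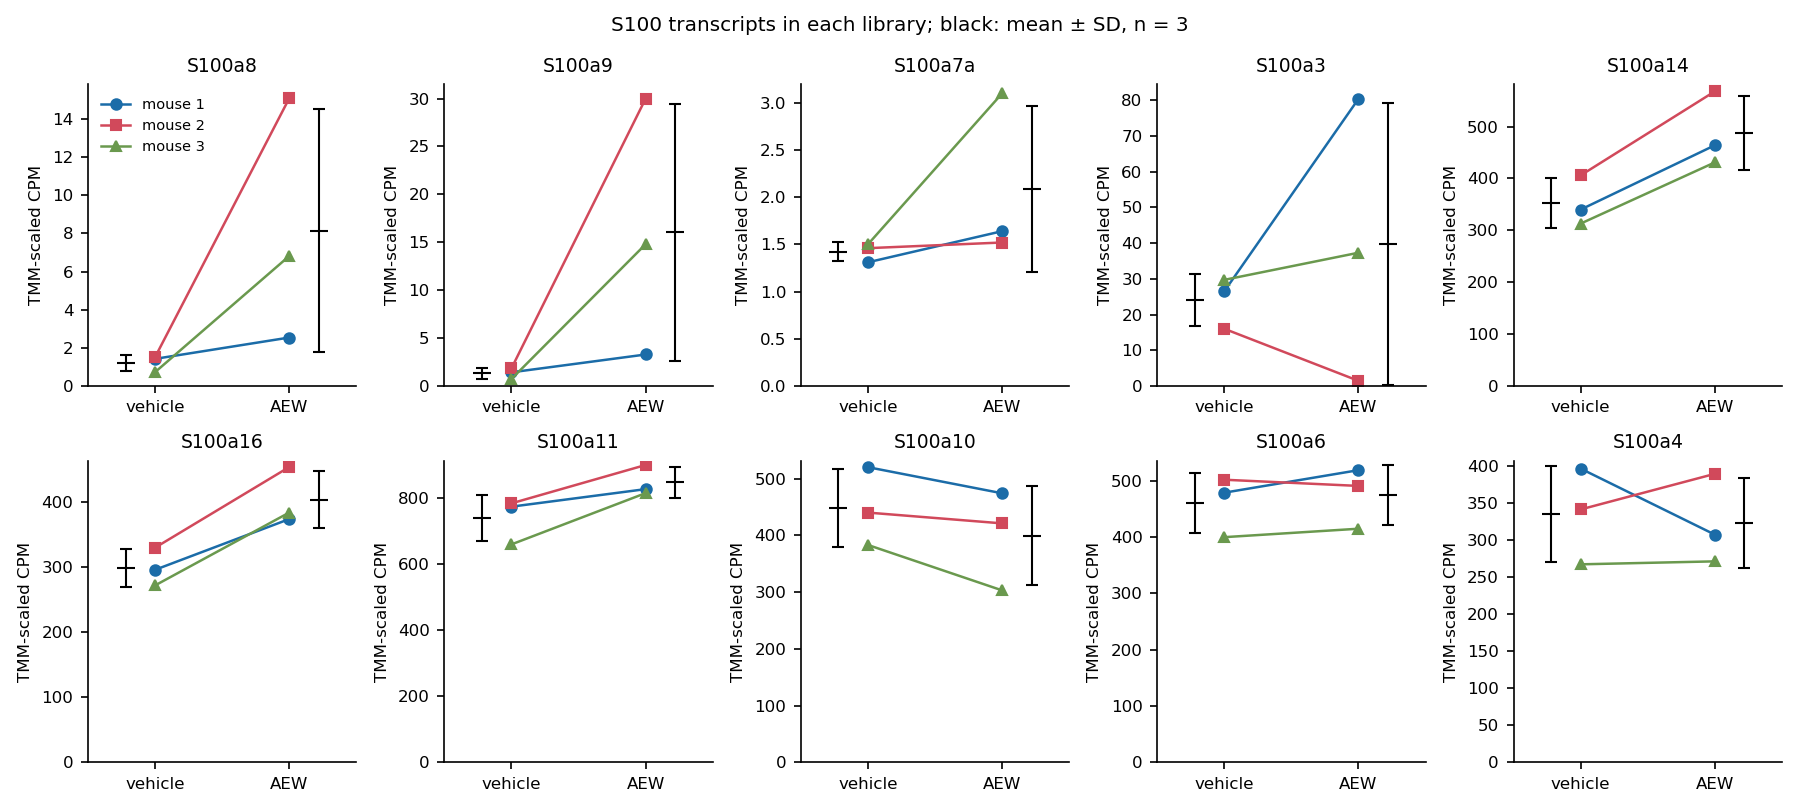
TMM-scaled CPM of each S100 gene in the vehicle and AEW cheek of each mouse, joined by lines, with the mean ± SD of 3 libraries in black and axes that start at 0. The AEW cheek was the higher in all 3 mice for S100a8, S100a9, S100a7a, S100a14, S100a16 and S100a11, and S100a3 went down in mouse 2 and up in mice 1 and 3.

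S100a8 (gene 20201), a subunit of calprotectin, stood at 1.42, 1.51 and 0.723 CPM in vehicle replicates 1 to 3 and at 2.54, 15.1 and 6.82 CPM in AEW replicates 1 to 3. All AEW libraries were above all vehicle libraries, and AEW replicate 1 was much nearer to the vehicle libraries than the other AEW libraries were. AEW over vehicle was 2.73 ± 0.66 on the log2 scale (SE), or 6.64 fold, and the 95% interval ran from 1.18 to 4.28 (edgeR, adjusted p = 0.0434). The underlying counts were low, at 26, 28 and 13 reads in vehicle skin and 51, 287 and 132 in AEW skin. By mouse, AEW over vehicle came to 1.79 for mouse 1, whose 95% exact binomial interval was 1.09 to 2.98. It came to 9.96 (6.75 to 15.3) for mouse 2 and 9.44 (5.33 to 18.2) for mouse 3. The interval of mouse 1 did not overlap those of mice 2 and 3, and these intervals cover counting error only.

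S100a9 (gene 20202), the other subunit, stood at 1.42, 1.84 and 0.723 CPM in vehicle replicates 1 to 3 and at 3.28, 30.0 and 14.8 CPM in AEW replicates 1 to 3. As for its partner, the groups did not overlap and AEW replicate 1 was the lowest of the AEW libraries. AEW over vehicle was 3.59 ± 0.80 on the log2 scale (SE), or 12.0 fold, and the 95% interval ran from 1.71 to 5.47 (edgeR, adjusted p = 0.0352). The ratios in mice 1, 2 and 3 were 2.31 (95% exact binomial interval 1.45 to 3.79), 16.4 (11.6 to 23.8) and 20.5 (11.8 to 39.0). Chosen after the values were seen, S100a8 to S100a9 TPM ratios were 1.38, 1.14 and 1.37 in vehicle replicates 1 to 3 and 1.06, 0.694 and 0.633 in AEW replicates 1 to 3. The ratio was lower on the AEW side in all 3 mice and the groups did not overlap. The 95% exact binomial intervals are wide, as in mouse 3 with 0.586 to 3.21 on the vehicle side and 0.511 to 0.781 on the AEW side, and the difference was not tested.

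The call of both genes depended on single libraries and on the pairing. With the mouse as a block the log2 fold changes of S100a8 and S100a9 were 2.49 and 3.24, with adjusted p of 0.0826 and 0.0709. Over the 6 fits that left out a library, both passed without AEW replicate 1 (adjusted p of 0.00885 and 0.00444) and neither passed without vehicle replicate 1, 2 or 3 or AEW replicate 2 or 3, with adjusted p of up to 0.168 and 0.149. The direction was the same in all of these fits, at log2 fold changes from 1.93 to 3.15 for S100a8 and from 2.76 to 4.06 for S100a9.

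Neutrophils and monocytes are known to carry calprotectin, so markers of neutrophils, and a joint list for monocytes and macrophages, are given beside it. The 12 neutrophil markers summed to 10.9, 11.3 and 7.34 CPM in vehicle replicates 1 to 3 and to 11.4, 37.6 and 32.9 CPM in AEW replicates 1 to 3. Most of that came from the receptor genes Cxcr2 and Csf3r, the only 2 of the 12 to pass the count filter. Cxcr2 rose 3.50 fold (adjusted p = 0.0377), and Csf3r differed by 1.30 on the log2 scale (adjusted p = 0.141). The other 10 markers had low counts, and 0 of the 12 were at 0 in every library. Ly6g, a neutrophil surface protein gene, had 2.01, 2.02 and 0 estimated counts in vehicle skin and 9.57, 9.56 and 4.16 in AEW skin. Mpo and Elane, genes of granule enzymes, had from 0 to 2 and from 5 to 7 counts in vehicle libraries and from 1 to 7 and from 1 to 2 in AEW libraries. Mmp8, Retnlg and Fpr1 were lower in AEW replicate 1, at 3, 0 and 3 counts, than in AEW replicates 2 and 3. Those had 13 and 19, 8.18 and 13.12, and 7 and 6 counts. Csf3r had the same order of low and high libraries, at 74.05 against 288.73 and 279.44 counts, and so did Ltf, at 1 against 6 and 5. Camp, Ly6g, Mpo and Elane did not have this order, and Elane was lower on the AEW side in all 3 mice. In AEW replicates 1 to 3 Camp had 4, 2 and 2, Ly6g 9.57, 9.56 and 4.16, Mpo 2, 7 and 1, and Elane 2, 1 and 1 counts. Ngp had 0, 0 and 2 and Stfa2l1 0, 0.27 and 3.11 counts there, and both were highest in vehicle replicate 2, at 11 and 4.73. Mmp8 had 5, 6 and 2 counts in vehicle replicates 1 to 3.

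Of the 10 monocyte and macrophage markers 0 passed the test, and 0 were called higher with the mouse as a block. In the blocked fit without mouse 1, 10 were called higher, against 12.7% of all tested genes. The 10 markers summed to 1577, 787 and 634 CPM in vehicle replicates 1 to 3 and to 636, 1642 and 1205 CPM in AEW replicates 1 to 3. The sum was lower on the AEW side in mouse 1 and higher in mice 2 and 3, the mice with the larger ratios of S100a8 and S100a9. The 4 stress keratins, all of which rose, summed to 1002, 1245 and 1150 CPM in vehicle skin and to 3057, 6483 and 3948 CPM in AEW skin. Among them Krt16, a keratin of hyperproliferative epidermis, rose 27.6 fold (adjusted p = 0.00478), while Krt6b and Krt17 did not pass in the blocked fit (adjusted p = 0.0576 and 0.0584), which left 2 of the 4. Among AEW libraries, replicate 1 was the lowest for the stress keratin sum, Krt6a, Krt6b, Krt16, Cxcr2 and both calprotectin genes, and the highest for Krt17, at 1605 against 1397 and 1453 CPM. The part of these cell types in the rise of S100a8 and S100a9 was not tested.

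**Figure D3:**
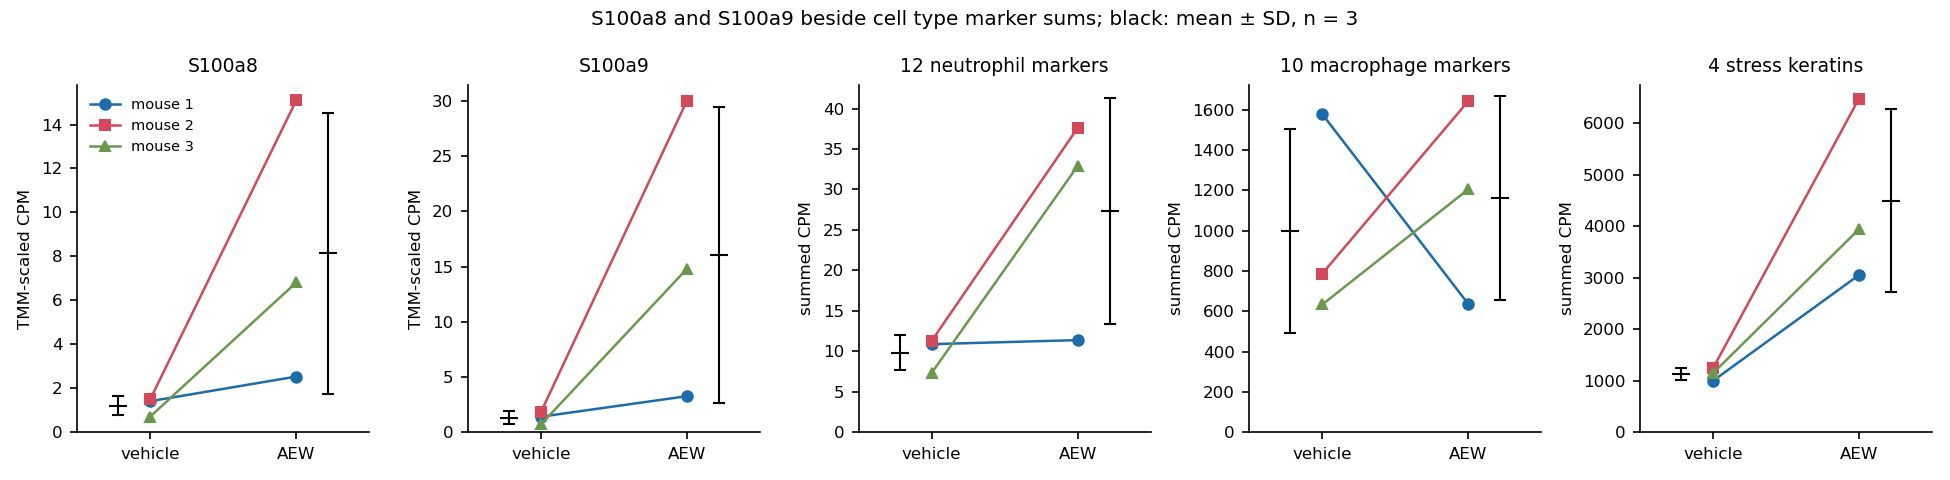
S100a8 and S100a9 in TMM-scaled CPM beside the summed CPM of the neutrophil, macrophage and stress keratin markers, by mouse, with the mean ± SD of 3 libraries in black. The macrophage sum goes from 1577 to 636 in mouse 1, from 787 to 1642 in mouse 2 and from 634 to 1205 in mouse 3, and S100a8, S100a9 and the stress keratin sum are higher on the AEW side in all 3 mice.

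The genes most like S100a8 across the 6 libraries were Far1, Il1f8 and Atp6v1b2, with Pearson correlations of log2 CPM of 0.999, 0.998 and 0.998. Those most like S100a9 were Glrx, Prnd and Il1f8, at 0.998, 0.997 and 0.997. Il1f8 is an interleukin 36 gene of keratinocytes and stood at 24.0, 26.6 and 19.8 CPM in vehicle replicates 1 to 3 and at 32.8, 92.5 and 58.8 CPM in AEW replicates 1 to 3. Far1 encodes a fatty acyl-CoA reductase and Glrx a glutaredoxin, and AEW over vehicle was 2.10 fold (adjusted p = 0.0517) and 3.11 fold (adjusted p = 0.0437). With the mouse as a block, Glrx and Il1f8 had adjusted p of 0.0962 and 0.0747. The 6 points come from 3 mice and include the difference between the groups, and the 3 genes were picked as the best matches in the table.

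S100a7a (gene 381493), the mouse relative of the psoriasin genes, is found in inflamed epidermis. It had 1.31, 1.46 and 1.5 CPM in vehicle replicates 1 to 3 and 1.64, 1.52 and 3.10 CPM in AEW replicates 1 to 3. The groups were apart only narrowly, since vehicle replicate 3 and AEW replicate 2 were nearly equal, and AEW replicate 3 was the high library. On the log2 scale the difference was 0.55, and its 95% interval ran from -0.24 to 1.34 (adjusted p = 0.309). The ratio in mouse 3 was 2.07 (95% exact binomial interval 1.29 to 3.39), and the intervals of mice 1 and 2 included no change. Its counts were from 24 to 60 reads per library.

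S100a14 and S100a16, neighbouring genes whose proteins are found mainly in epithelia, had small differences that were alike in all 3 mice. S100a14 (gene 66166) stood at 340, 406 and 313 CPM in vehicle replicates 1 to 3 and at 464, 568 and 431 CPM in AEW replicates 1 to 3. Every mouse was higher on the AEW side, with log2 ratios of 0.45, 0.49 and 0.46. Across mice the difference was 0.47 ± 0.15 on the log2 scale (SE), and its 95% interval ran from 0.11 to 0.82 (adjusted p = 0.087), so the gene did not pass the test. DESeq2 gave an adjusted p of 0.0197, and the blocked fit without mouse 1 gave 0.0151. It did not pass in the other 14 of the 16 alternatives. Among these were all 6 edgeR fits that left out a library (adjusted p from 0.0777 to 0.276).

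S100a16 (gene 67860) stood at 296, 330 and 272 CPM in vehicle replicates 1 to 3 and at 374, 454 and 384 CPM in AEW replicates 1 to 3. All AEW libraries exceeded all vehicle libraries, and the log2 ratios in mice 1, 2 and 3 were 0.34, 0.46 and 0.50. Across mice the difference was 0.43 ± 0.12 on the log2 scale (SE), and its 95% interval ran from 0.15 to 0.72 (adjusted p = 0.063). It passed with DESeq2 (adjusted p = 0.00689), with limma on log2(TPM + 1) (adjusted p = 0.0391) and in the blocked fit without mouse 1 (adjusted p = 0.0145). In the other 13 of the 16 alternatives it did not pass. Among these were all 6 edgeR fits that left out a library (adjusted p from 0.0525 to 0.229). DESeq2 called 4 members higher, namely S100a8, S100a9, S100a14 and S100a16, against 9.01% of all tested genes. Limma called 5.11% of its tested genes higher, and the fit without mouse 1 called 12.7%.

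Some epidermal markers were also higher in the AEW libraries. Krt14, the basal keratin gene, rose from 2799 ± 650 to 5480 ± 895 CPM (SD, n = 3 each, adjusted p = 0.0319), and Krt1, of the suprabasal layers, rose 3.71 fold (adjusted p = 0.0171). Of 7 basal markers 1 rose and 0 fell, and of 8 tested suprabasal markers 2 rose and 0 fell, of which Ivl did not pass in the blocked fit (adjusted p = 0.0525). Basal Dst differed by -0.51 on the log2 scale, with all AEW libraries below all vehicle libraries (adjusted p = 0.0868), and the groups of suprabasal Krt10 and Dsc1 overlapped. The muscle markers were lower, and leaving them out of the scaling gave log2 differences of 0.46 for S100a14 and 0.43 for S100a16. The part of a larger epidermal share in these values was not tested.

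S100a11 (gene 20195) encodes a protein that binds annexin A1 and is built into the cornified envelope. It stood at 773, 783 and 659 CPM in vehicle replicates 1 to 3 and at 826, 899 and 814 CPM in AEW replicates 1 to 3. The AEW side was higher in each mouse and the groups did not overlap. On the log2 scale the difference was 0.20 ± 0.11 (SE), and its 95% interval ran from -0.07 to 0.46 (adjusted p = 0.282), so a change of more than 1.38 fold upwards lay outside the interval. Of the words of 50 bases in its GENCODE transcripts 41.1% also occur in other gene models, which are not rows of the deposited table, so its level is uncertain to the extent that reads were divided among copies.

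S100a10 (gene 20194) encodes p11, which joins a pair of annexin A2 molecules into a membrane-bound complex. It stood at 520, 440 and 383 CPM in vehicle replicates 1 to 3 and at 474, 421 and 303 CPM in AEW replicates 1 to 3. It was lower on the AEW side in each of the 3 mice, but the groups overlapped. AEW over vehicle was -0.16 on the log2 scale, and its 95% interval ran from -0.61 to 0.29 (adjusted p = 0.596).

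Annexin family genes, which include the partners of both proteins, were counted by the same gene-by-gene test. Of 10 tested annexins 0 rose and 1 fell, with a median log2 fold change of -0.15. Of all tested genes 4.85% were called higher and 6.8% lower. Anxa2, the partner of S100a10, averaged 1356 ± 81.2 CPM on the vehicle side and 1278 ± 104 CPM on the AEW side (SD, 3 libraries each), a log2 difference of -0.08 with a 95% interval from -0.35 to 0.18. Anxa1, the partner of S100a11, differed by -0.22 on the log2 scale (adjusted p = 0.32). The member that fell was Anxa11, which stood at 163, 137 and 169 CPM in vehicle replicates 1 to 3 and at 98.0, 110 and 117 CPM in AEW replicates 1 to 3 (adjusted p = 0.0347, and 0.0701 with the mouse as a block). Anxa8, which differed by -0.56 on the log2 scale, had an adjusted p of 0.052 and passed with the block (0.0413).

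S100a6 and S100a4 were close to equal in both groups. S100a6 (gene 20200), or calcyclin, is a protein of fibroblasts and epithelial cells named for its rise in dividing cells. It stood at 479, 502 and 400 CPM in vehicle replicates 1 to 3 and at 519, 491 and 415 CPM in AEW replicates 1 to 3, and mouse 3 was the lowest on both sides. Mice 1 and 3 were slightly higher and mouse 2 slightly lower on the AEW side. AEW over vehicle was 0.04 on the log2 scale, and its 95% interval ran from -0.27 to 0.36 (adjusted p = 0.85).

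S100a4 (gene 20198) encodes a protein of fibroblasts and leukocytes that binds non-muscle myosin. It stood at 396, 341 and 267 CPM in vehicle replicates 1 to 3 and at 307, 389 and 271 CPM in AEW replicates 1 to 3. Mouse 1 was lower and mouse 2 higher on the AEW side, and the log2 difference was -0.05, within a 95% interval from -0.50 to 0.39 (adjusted p = 0.871). The macrophage sum given above was also lower on the AEW side of mouse 1 and higher on that of mouse 2. In mouse 3 that sum went from 634 to 1205 CPM, while S100a4 was nearly equal on both sides, at 267 and 271 CPM. The part of macrophages in S100a4 was not tested. Of the words of 50 bases in its transcripts 47.4% also occur in another gene model that is not a row of the deposited table.

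S100a3 (gene 20197), a zinc- and calcium-binding protein of the hair cuticle, had the widest spread of ratios between mice among the 10 members. It stood at 26.5, 16 and 29.7 CPM in vehicle replicates 1 to 3 and at 80.4, 1.42 and 37.3 CPM in AEW replicates 1 to 3. The AEW libraries held both the highest and the lowest value of all 6. On the AEW side it was 3.04 fold higher for mouse 1, whose 95% exact binomial interval was 2.74 to 3.37. It was 11.3 fold lower (7.62 to 17.5) for mouse 2 and 1.26 fold higher (1.12 to 1.41) for mouse 3. Between groups the log2 difference was 0.72, its 95% interval ran from -1.59 to 3.04 (adjusted p = 0.656), and its sign turned with the mouse as a block (-0.11) and without AEW replicate 1 (-0.32).

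The hair shaft genes Padi3, Krt35 and Hoxc13 and the sum over the list had the direction of S100a3 in each of the 3 mice. The 15 hair shaft genes in the table summed to 144, 233 and 117 CPM in vehicle replicates 1 to 3 and to 317, 25.3 and 211 CPM in AEW replicates 1 to 3, and AEW replicate 2 was the lowest of all libraries as it was for S100a3. Among vehicle libraries the sum was highest in replicate 2, where S100a3 was lowest. Padi3, which is among the 15 and encodes the enzyme that converts arginines of S100A3 to citrulline, stood at 5.57, 5.35 and 4.17 CPM in vehicle replicates 1 to 3 and at 28.5, 0.42 and 10.7 CPM in AEW replicates 1 to 3. Krt35, an early keratin of the hair shaft, had log2 ratios of 3.27, -5.31 and 0.17 in mice 1, 2 and 3, where S100a3 had 1.60, -3.50 and 0.33. The hair shaft transcription factor gene Hoxc13 had 2.69, -0.81 and 0.63. Over the 15 genes the median log2 fold change was -0.35, opposite in sign to the 0.72 of S100a3, so the named genes do not stand for the whole list. Of the 15 genes 1 rose and 0 fell. The gene that rose was Foxn1 (edgeR, adjusted p = 0.0203), which was higher on the AEW side in all 3 mice, mouse 2 included. The part of hair follicle content or stage in S100a3 was not tested.

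**Figure D4:**
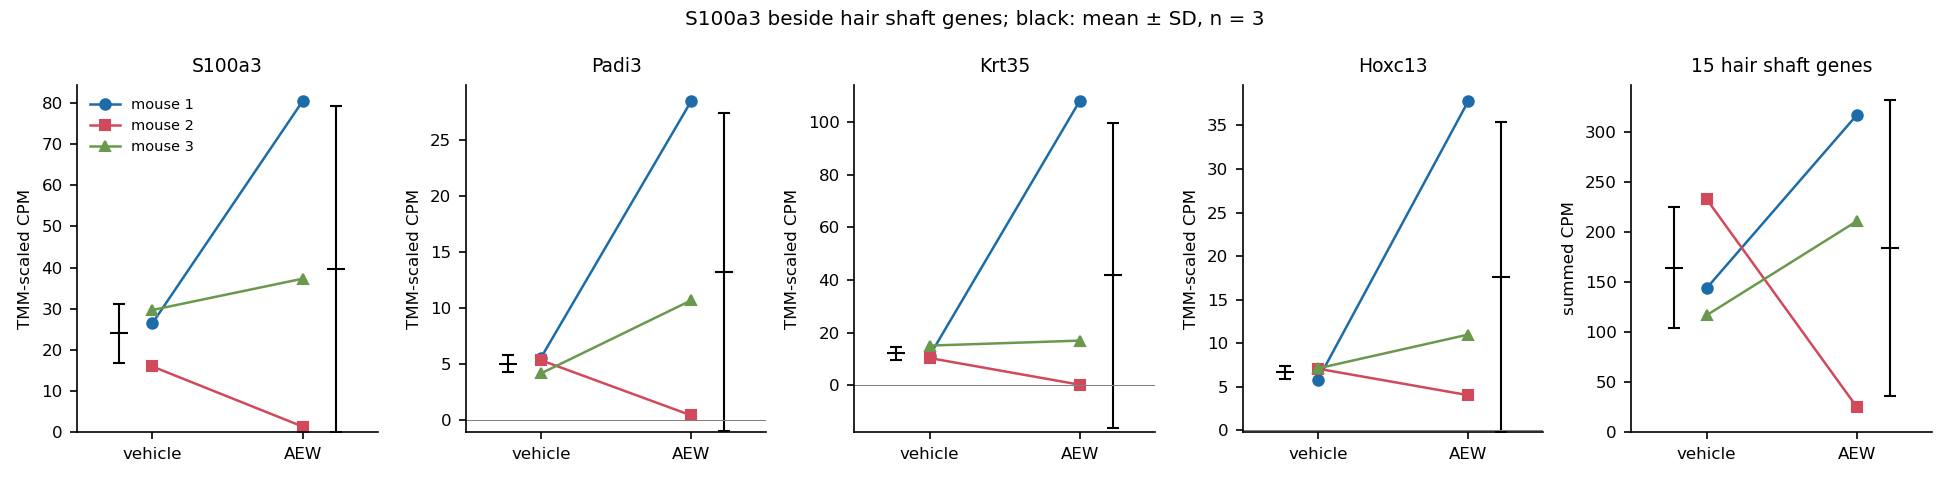
S100a3, Padi3, Krt35 and Hoxc13 in TMM-scaled CPM, and the summed CPM of 15 hair shaft genes, in the vehicle and AEW cheek of each mouse, with the mean ± SD of 3 libraries in black. In each of these panels mouse 2 falls and mice 1 and 3 rise on the AEW side, and for S100a3 mouse 2 goes from 16 to 1.42 CPM.

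Receptors and adaptors for extracellular S100 proteins did not pass the test. Of 12 tested genes of this list 0 rose and 0 fell, with a median log2 fold change at 0. Tlr4, which encodes a receptor for calprotectin, differed by -0.37 on the log2 scale (adjusted p = 0.248). Myd88, the adaptor of that receptor, stood at 41.6, 41.5 and 37.5 CPM in vehicle replicates 1 to 3 and at 46.1, 61.4 and 58.6 CPM in AEW replicates 1 to 3, a log2 difference of 0.46 (adjusted p = 0.0555). The groups of Myd88 did not overlap. Alcam and Mcam, adhesion receptor genes, differed by 0.46 and -0.28 on the log2 scale (adjusted p = 0.172 and 0.182).

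Among the intracellular partners and modifying enzymes, 2 of 12 rose and 1 fell, with a median log2 fold change of 0.44. Tgm3, an epidermal transglutaminase that crosslinks envelope proteins, rose from 11.2 ± 3.63 to 44.8 ± 12.6 CPM (SD, n = 3 each, adjusted p = 0.0123). Trp53, whose protein several S100 proteins bind, rose 1.48 fold (adjusted p = 0.0347, and 0.0940 with the mouse as a block). The peptidylarginine deiminase gene Padi2 fell by 1.27 on the log2 scale (adjusted p = 0.0421), while its relative Padi1, 3.15 fold in AEW over vehicle, had an adjusted p of 0.051 and passed with the block (0.0460).

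The fused-type S100 genes encode large epidermal proteins that begin with an S100 domain. Of 7 tested genes 2 rose and 0 fell, with a median log2 fold change of 0.76. Rptn, the repetin gene, stood at 98.2, 89.7 and 52.5 CPM in vehicle replicates 1 to 3 and at 225, 749 and 318 CPM in AEW replicates 1 to 3 (adjusted p = 0.0267). Its AEW libraries had the same order as those of S100a8 and S100a9, with replicate 2 the highest and replicate 1 the lowest. Flg, the filaggrin gene, was the other gene that rose, 5.16 fold (adjusted p = 0.0125). Flg2 and Hrnr differed by -0.58 and 0.52 on the log2 scale (adjusted p = 0.124 and 0.362). Of the genes named here as changed outside the 10 members, Krt16 and Mylpf passed in all 6 fits that left out a library, Krt6b in 5 (all but that without vehicle replicate 3), Krt17 in 3 and Ivl in 1 (that without AEW replicate 1). Krt17 failed when vehicle replicate 1, vehicle replicate 3 or AEW replicate 2 was left out. Cxcr2, Krt14, Krt1, Anxa11, Tgm3, Trp53, Padi2, Flg, Rptn, Foxn1, Glrx and Il1f8 each failed when vehicle replicate 1 or vehicle replicate 3 was left out, and some when other libraries were, with adjusted p of up to 0.178 for Il1f8.

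Of the S100 genes outside the 10, 8 were in the table and 4 passed the filter, and 0 of these rose or fell. S100a1, a regulator of calcium handling in muscle, stood at 125, 114 and 118 CPM in vehicle replicates 1 to 3 and at 81.5, 101 and 91.1 CPM in AEW replicates 1 to 3. The groups did not overlap and all 3 mice were lower on the AEW side, a log2 difference of -0.38 whose 95% interval ran from -0.63 to -0.14 (adjusted p = 0.0554). The muscle marker sums were lower in the same libraries, with Mylpf, a myosin light chain gene, at -1.63 on the log2 scale (adjusted p = 0.00478), and their part in S100a1 was not tested. S100a13 differed by -0.27 on the log2 scale (adjusted p = 0.19).

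S100b, a marker of Schwann cells, stood at 8.52, 7.51 and 7.45 CPM in vehicle replicates 1 to 3 and at 4.57, 4.67 and 7.19 CPM in AEW replicates 1 to 3, so that the groups did not overlap but AEW replicate 3 was near the vehicle libraries. The 6 Schwann cell markers summed to 462, 442 and 463 CPM in vehicle replicates 1 to 3 and to 263, 223 and 472 CPM in AEW replicates 1 to 3, with the same library near the vehicle level. S100b differed by -0.51 on the log2 scale (adjusted p = 0.161), and the part of the Schwann cell markers in it was not tested.

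**Figure D5:**
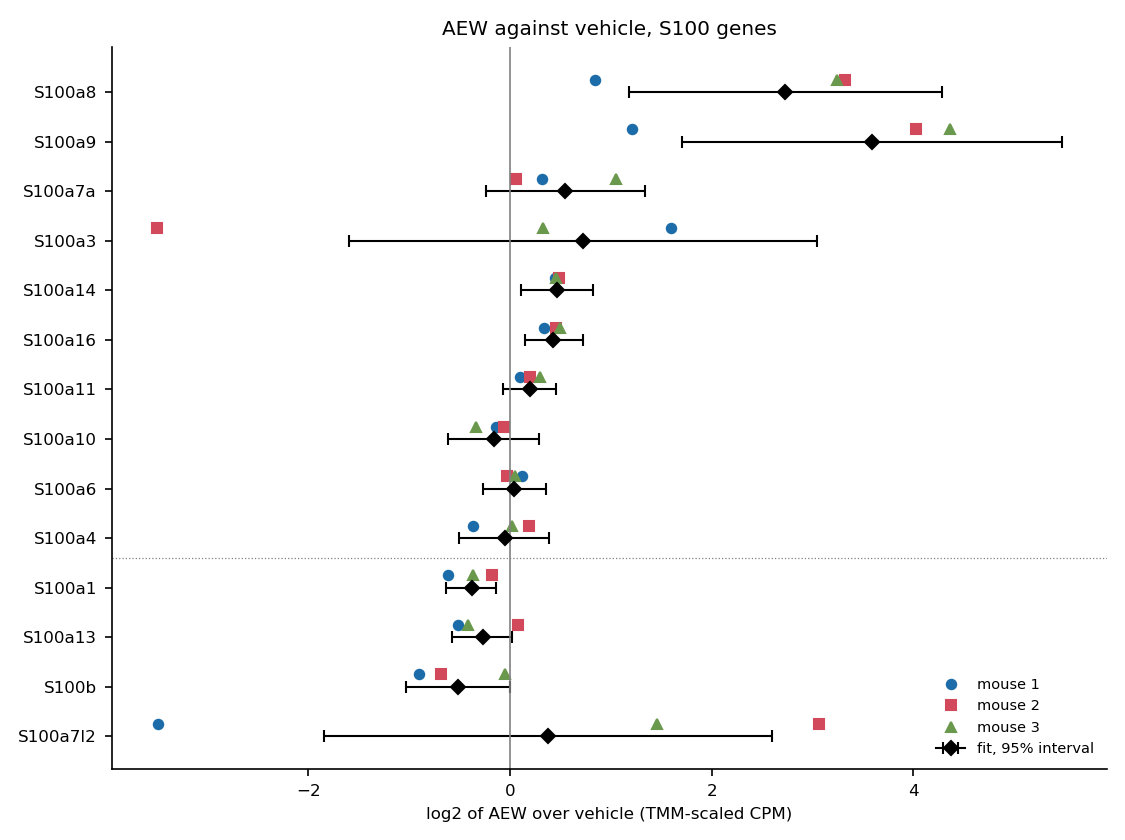
Log2 of AEW over vehicle for the 10 S100 genes (above the dotted line) and 4 further S100 genes, with the fitted value and its 95% interval in black and the ratio of each mouse in colour. The intervals of S100a8, S100a9, S100a14 and S100a16 lie above 0, and only the first pair passes after adjustment over all genes. Those of S100a1 and S100b lie below 0, for S100b with an upper limit of 0.999 fold, and neither gene passes. S100a3, S100a4, S100a6, S100a7l2 and S100a13 have mice on both sides of 0.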

How the data were processed

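The deposited table holds estimated counts, FPKM and TPM per gene and library, made by the authors, per the file headers. FPKM values deposited by the authors were not used. TPM values deposited by the authors, per the file headers, gave levels compared between genes. Reads were single ends of 50 bases from poly(A)-selected RNA, per the labels' protocols. The submitters' processing notes name HISAT and GRCm39. Which counting tool, annotation and strand setting were used is not given in the sources used for this work, and antisense and overlapping genes cannot be told apart.

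Estimated counts, deposited by the authors, were rounded and filtered with filterByExpr of edgeR 4.0.16 (minimum count 10), which left 15109 genes. TMM factors lay between 0.973 and 1.05, and scaled counts were tested with edgeR's quasi-likelihood test in R 4.3.3, with group as the term and Benjamini-Hochberg adjustment over all tested genes at 0.05. CPM values are TMM-scaled. Standard errors were taken as the log2 difference over the root of F. For ratios of counts, 95% exact binomial limits are given. The procedure was tested on simulated counts that had no mouse effect and no outlying library, so that test does not cover either.

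Cheeks of a mouse share its number in the labels, which pairs the libraries by animal. Within mice 1, 2 and 3, the deviations of both cheeks from their group means had correlations of -0.244, -0.165 and -0.246. Between cheeks of different mice the correlations lay from 0.0496 to 0.181. Deviations within a group sum to 0, which ties these values to those within mice. The main fit leaves out the pairing. Every pair of replicates differed beyond sampling noise, with the lowest chi-square at 19.07 for each degree of freedom. Alternatives were DESeq2 1.42.0, its size factors, library totals, scaling without muscle markers, no filter, limma 3.58.1 on log2(TPM + 1), the mouse as a block, and leaving out each mouse or library.

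Members and lists were chosen with earlier results of these data known. Named were the 10 members, other tested S100 genes, up to 4 genes with the smallest p of each list, fixed defining markers, and the 3 genes most correlated (log2 of CPM + 0.5, mean of at least 1) with each called member. Words of 50 bases came from GENCODE transcripts. Of those of S100a7a and S100a3, 6.44% and 3.59% also occur in other gene models.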

Additional observations from a re-analysis of the deposited data

How the results depend on the processing

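The count of S100 members called higher was 2. It was 3 with limma, 4 with DESeq2 and 4 with mouse 1 left out and the replicate block. It was 0 with the mouse as a replicate block and 0 with mouse 2 or mouse 3 left out and that block. When a library was left out it ranged from 0 to 2. The count called lower was 0 in every fit tried. Over all genes, 733 were higher and 1027 lower. DESeq2 called 1362 higher, limma called 681 lower, and the mouse as a replicate block gave 300 higher and 588 lower. With that block and mouse 1 left out the counts were 1922 and 1588, with mouse 2 left out 112 and 279, and with mouse 3 left out 0 and 0. Leaving out a library gave from 23 to 1197 higher and from 117 to 1041 lower. Without AEW replicate 1, 1197 of 15284 genes were called higher and 1041 lower. In that fit 2 neutrophil markers, 4 suprabasal markers and 1 receptor or adaptor gene were called higher, against 1, 2 and 0 in the main fit. Of the partners and enzymes 4 were called higher and 3 lower, against 2 and 1, while the fibroblast markers called higher went from 1 to 0. In the same fit 1 annexin, 1 T cell marker and 2 melanocyte markers were called higher, against 0 of each in the main fit. The adipocyte and Schwann cell markers called lower each went from 1 to 0.

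S100a3 had a log2 fold change of -0.37 with limma, -0.11 with the replicate block, and -1.04 and -0.61 with mouse 1 and mouse 3 left out and the block, and ranged from -0.32 to 1.29 when a library was left out. S100a4 had 0.0063 with limma and 0.11 with mouse 1 left out and the block, and ranged from -0.21 to 0.084 when a library was left out. That range was from -0.047 to 0.14 for S100a6 and from -0.31 to 0.0011 for S100a10. S100a7l2 had -0.86 and -0.20 with mouse 2 and mouse 3 left out and the block, and ranged from -0.095 to 1.5 when a library was left out. With mouse 1 left out and the block, Msx2, Hoxc13, Krt35 and Padi3 had -0.047, -0.064, -1.56 and -0.70, and Padi3 had -0.19 with mouse 3 left out. Flt3 had 0.013 with mouse 1 left out and the block, and Itgam -0.0038 with mouse 2 left out and the block. Krt35 ranged from -0.52 to 2.36 when a library was left out. With the block, named genes outside the members that lost their call were Anxa11, Trp53, Krt6b, Krt17, Ivl, Il1f8, Glrx, Prnd, Cd3g, Pdgfra, Cdh19 and Adipoq, and Anxa8 and Padi1 gained it. The cause of these shifts was not tested. The other 6 members kept their direction in every fit tried, and the 3 changes of scaling changed the call of none of the 10 members. With 3 mice, and counts of 13 to 66 reads for S100a8 and S100a9 in the lowest 4 libraries, the precision of both genes is limited.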

Other observations

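S100a7l2, a further relative of the psoriasin genes that lies beyond S100a9 on chromosome 3, is described here because of values seen in the data. It stood at 7.27, 0.756 and 2.45 CPM in vehicle replicates 1 to 3 and at 0.646, 6.30 and 6.72 CPM in AEW replicates 1 to 3. It was 11.2 fold lower on the AEW side in mouse 1 (95% exact binomial interval 6.35 to 21.7), 8.33 fold higher in mouse 2 (4.78 to 15.7) and 2.75 fold higher in mouse 3 (1.94 to 3.96). The group difference had a log2 fold change of 0.38 with a 95% interval from -1.84 to 2.60 (adjusted p = 0.816, edgeR). Mouse 1 was thus the lowest of the AEW libraries for S100a7l2 as for S100a8 and S100a9, but the highest of the vehicle libraries for S100a7l2 alone of these 3 genes.

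S100a2, S100a5, S100g and S100z did not pass the filter on low counts, with at most 21.64 estimated counts in any library, found for S100g in vehicle replicate 2. S100g, an intestinal calcium carrier, had 14, 21.64 and 7.73 estimated counts in vehicle replicates 1 to 3 and 8, 5 and 0 in AEW replicates 1 to 3.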
